A study of Homo sapiens with 8 samples.

Results

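ATF4 binding was examined at the start sites of 6 genes that regulate apoptosis: PMAIP1, BBC3, BCL2L11, TNFRSF10B, MCL1 and BCL2. The data are lists of peaks from chromatin immunoprecipitation with an ATF4 antibody followed by sequencing. A peak was counted for a gene when its interval came within 5 kb of the gene's start site in the hg19 build. The start sites were position 57567192 of chromosome 18 for PMAIP1, 47736023 of chromosome 19 for BBC3, 111878491 of chromosome 2 for BCL2L11, 22926692 of chromosome 8 for TNFRSF10B, 150552214 of chromosome 1 for MCL1 and 60986613 of chromosome 18 for BCL2. Of 312662 listed peaks in 8 libraries, 60 met the rule, and each of the 6 genes had at least 1. The libraries came from Nalm6 and SUPB15, established cell lines from acute lymphoblastic leukaemia. Each line was either treated with L-asparaginase at 1 IU/ml, for 2 h, or left untreated, and each of the 4 groups had 2 libraries. L-asparaginase is a leukaemia drug, an enzyme that breaks down asparagine, and the question is how ATF4 occupancy differed under it.

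In the integrated stress response, ATF4 is the transcription factor made in larger amounts when amino acids run short. It binds DNA as a dimer with C/EBP or other bZIP proteins. Proteins of the BCL2 family decide whether mitochondria release the factors that switch on caspases. BCL2 and MCL1 hold that release back, and the BH3-only proteins NOXA (the product of PMAIP1), PUMA (BBC3) and BIM (BCL2L11) counter them. TNFRSF10B encodes DR5, a receptor for the ligand TRAIL that starts apoptosis from the cell surface, and it is known as a gene switched on by ATF4 together with CHOP when the endoplasmic reticulum is stressed.

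The upstream promoter sequences of PMAIP1 and BCL2L11 are shown because listed Nalm6 peaks covered the start sites of both genes. They are the 250 bases before the start in the RefSeq promoter table (GRCh38.p14, read along the gene), at chr18:59899746-59899995 on the plus strand for PMAIP1 and at chr2:111120664-111120913 on the plus strand for BCL2L11. That table was matched by symbol, and its start sites may differ from the hg19 positions above. The strongest PMAIP1 summits lay 949 to 976 bp downstream of the hg19 start, whereas the bases shown are from upstream of the start. Capitals mark TGACG, the first 5 bases of the cAMP response element, read on either strand.
PMAIP1: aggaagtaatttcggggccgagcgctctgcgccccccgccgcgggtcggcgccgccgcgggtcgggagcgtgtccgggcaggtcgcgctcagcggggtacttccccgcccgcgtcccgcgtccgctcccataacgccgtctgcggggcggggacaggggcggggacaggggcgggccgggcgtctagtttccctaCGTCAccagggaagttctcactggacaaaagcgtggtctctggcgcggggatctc
BCL2L11: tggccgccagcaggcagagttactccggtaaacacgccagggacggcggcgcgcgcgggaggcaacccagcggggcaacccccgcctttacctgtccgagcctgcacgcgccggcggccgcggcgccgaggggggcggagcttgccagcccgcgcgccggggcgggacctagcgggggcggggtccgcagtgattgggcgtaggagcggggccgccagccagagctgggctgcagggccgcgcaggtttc
Both stretches are rich in G and C, at 72.8% and 76.8%, where the median of all 35116 promoters in the table was 58%. Neither holds the CEBP-ATF response element TGATGCAA, its looser form TGATGNAA, the full cAMP response element TGACGTCA or the C/EBP element TTGCGCAA, on either strand. These elements occur in 0.866%, 3.62%, 1.85% and 0.151% of the table's promoters, counted over the table's whole windows, and TGATGCAA is a case of TGATGNAA. The shorter TGACG, chosen after the sequences had been seen, was held by 2 of the 4 genes matched in the table, PMAIP1 at -55 and BCL2 at -225 bases from the start, both on the reverse strand, and by 24.6% of all promoters. A missing match says only that these letters are not in this window.

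**Figure D1:**
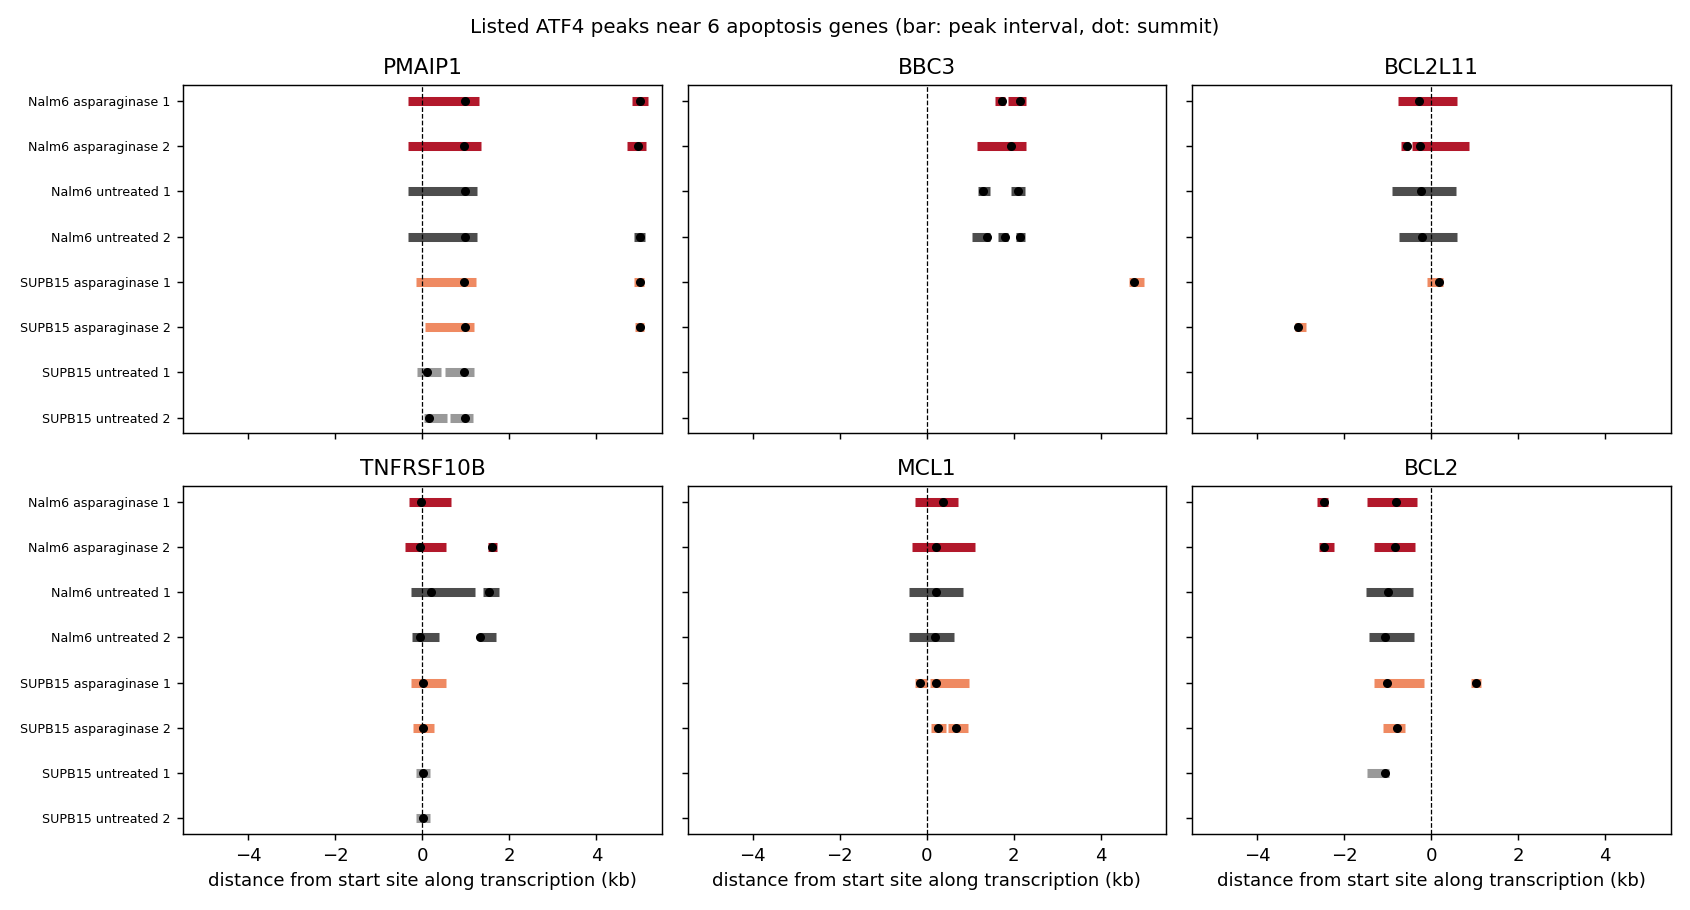
Listed ATF4 peaks around the 6 start sites, 1 row per library; the horizontal axis is the distance from the start site along the direction of transcription in kb, bars are peak intervals and dots their summits. The PMAIP1 summit lies 949 to 976 bp downstream of the start in all 8 libraries, and no peak is listed within 5 kb of BBC3, BCL2L11 or MCL1 in either untreated SUPB15 library.

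The lists gave 9 and 10 peaks near the 6 genes in asparaginase-treated Nalm6, 8 and 10 in untreated Nalm6, 9 and 7 in asparaginase-treated SUPB15, and 4 and 3 in untreated SUPB15. Whole lists ran from 9575 peaks (an untreated SUPB15 library) to 88302 (asparaginase-treated SUPB15, replicate 1). The lists give no read totals. As a guide to depth, the genome background (the lowest background, in fragments, of any peak in a list) was 2.21 and 2.33 in asparaginase-treated Nalm6, 2.97 and 2.79 in untreated Nalm6, 4.19 and 3.93 in asparaginase-treated SUPB15, and 4.08 and 3.90 in untreated SUPB15. The level of a peak is given below as its summit pileup plus 1, divided by that background. At genome background the lists held peaks from 3.10 to 4.98 times that background upwards, so a gene without a listed peak has no measured level of 0. The series text calls the Nalm6 libraries independent experiments. No such statement covers SUPB15, where p-values may measure technical spread only.

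All 6 genes had a listed peak in both libraries of Nalm6 with asparaginase and in both of untreated Nalm6. In SUPB15, 5 genes had one in both asparaginase libraries and 2 genes, PMAIP1 and TNFRSF10B, in both untreated libraries. Within a line, peaks from its 4 lists were merged into 1 region wherever they overlapped by 1 bp or more, which gave 9 regions near the genes in Nalm6 and 10 in SUPB15. In Nalm6, 6 of the 9, 1 per gene, were listed in all 4 libraries, against 44.1% of all 57175 Nalm6 regions. The same held for 2 of the 10 in SUPB15, against 4.63% of its 102989 regions. A further 1 of the 9 in Nalm6 was gained, meaning listed in both asparaginase libraries and in neither untreated one, where 12.3% of all regions were gained. In SUPB15 2 of the 10 were gained, against 16.7% of all regions. None of the 9 or 10 was in the opposite class, which held 1.21% and 0.0272% of all regions.

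Regions listed in all 4 libraries of a line were compared between treatments with limma, with the treated libraries shifted so that the median region had no change. The shift was 0.37 in Nalm6 and 0.62 in SUPB15 on the log2 scale, so a change below is relative to the median region unless it is called uncentred. Of the 6 Nalm6 regions, 2 passed the threshold of an adjusted p of 0.05, against 31.3% of all 25213 regions. TNFRSF10B rose, as did 22.7% of all regions, and BCL2L11 fell, as did 8.64%. Without centring 9762 regions were called higher and 100 lower in Nalm6, in place of 5717 and 2179. Of the 2 SUPB15 regions none was called by limma at that threshold, and 1 had an unadjusted p under 0.05, where 26.4% of 4765 regions were called, 20.5% higher and 5.96% lower. Without centring 2334 regions were called higher and 4 lower in SUPB15, in place of 976 and 284. The median log2 change of the member regions was 0.22 over the 6 in Nalm6 and 0.57 over the 2 in SUPB15, beside 0 for all regions by construction.

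The highest levels were found at PMAIP1. Its main region spanned chr18:57566860-57568530 in Nalm6 and chr18:57567054-57568419 in SUPB15. The level was 139 and 141 times the genome background in Nalm6 with asparaginase and 81.8 and 93.9 in untreated Nalm6. Both treated libraries lay above both untreated ones, and 99.5% of all regions listed in the 4 Nalm6 libraries had a lower mean level. In SUPB15 the level was 66.1 and 50.7 with asparaginase and 30.9 and 29.8 without, again with no overlap. There 96.3% of all regions listed in the 4 libraries had a lower mean level. Both treated libraries lay above both untreated ones at 60.4% of such regions in Nalm6 and 68.1% in SUPB15. The summit did not sit at the start site but 949 to 976 bp downstream of it, a span of 27 bp over the 8 libraries. In Nalm6 all 4 intervals also covered the start, with upstream edges at -323 to -332 bp. In untreated SUPB15 the interval was split in both libraries, with a weaker peak at 97 and 153 bp (fold enrichment 2.96 and 3.40) beside the strong one at 949 and 968 bp (9.04 and 11.1).

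The deposited fold enrichment at PMAIP1 moved less than the level did. Over local background it was 8.74 and 8.45 in Nalm6 with asparaginase and 8.05 and 8.57 in untreated Nalm6, with −log10 p of 177 and 184 against 132 and 149 and −log10 q of 172 and 179 against 127 and 144. In SUPB15 it was 12.1 and 13.6 with asparaginase and 9.04 and 11.1 without, with −log10 q of 191 and 148 against 72.0 and 76.5. The local background under the summit was itself 15.5 and 16.3 times the genome background in Nalm6 with asparaginase and 9.83 and 10.6 times in untreated Nalm6. At the TNFRSF10B summit the same ratio was 3.80 and 4.13 with asparaginase and 2.66 and 2.70 without. A local background that includes the peak's own fragments lowers the fold enrichment of a strong peak, and how far this acts here was not tested.

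In the limma comparison the PMAIP1 region was 1.24 times higher with asparaginase in Nalm6 (log2 change 0.31, SE 0.16, 95% interval -0.0047 to 0.63, adjusted p = 0.13) and 1.24 times in SUPB15 (0.31, SE 0.24, interval -0.15 to 0.78, adjusted p = 0.28). Neither passed the threshold. The uncentred log2 changes were 0.68 and 0.93, both past the threshold (limma adjusted p = 0.00015 and 0.00028). With fold enrichment in place of the pileup the log2 changes turned to -0.09 in Nalm6 and -0.07 in SUPB15. The response of SUPB15 minus that of Nalm6 was 0.13 (interval -0.38 to 0.64, limma adjusted p = 0.94 over 3812 regions listed in all 8 libraries).

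A second PMAIP1 site lay 4952 to 5011 bp downstream of the start, at the edge of the window. It was listed in 5 of the 8 libraries. In Nalm6 its level was 52.1 and 46.8 with asparaginase, and 25.8 in untreated replicate 2, while untreated replicate 1 did not list it. In SUPB15 it was gained, at 11.9 and 9.17 with asparaginase and unlisted without. The −log10 q in SUPB15 was 4.63 and 3.74, so the site dropped out there with −log10 q of at least 5. Its fold enrichment was 3.32 and 2.74 in asparaginase-treated Nalm6, 2.45 in the untreated library, and 2.27 and 2.49 in SUPB15 with asparaginase.

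At BBC3 the peaks listed within 5 kb were weak and lay downstream of the start site. A stronger peak beyond 5 kb, left out by the rule, is described at the end. The Nalm6 region, chr19:47733741-47734988, held 1 to 3 peaks per library with summits 1283 to 2137 bp downstream, and none of them covered the start site. The level was 24.5 and 24.0 times the genome background in Nalm6 with asparaginase and 14.5 and 18.6 in untreated Nalm6. The highest fold enrichments were 3.06 and 2.64 with asparaginase and 2.40 and 2.42 without, and the strongest peak stood at 49.8% and 59.4% of its list by −log10 q with asparaginase and at 89.1% and 74.7% without, where low percentages are strong. The treated libraries lay above the untreated ones, but the log2 change of 0.20 (SE 0.20, interval -0.21 to 0.60, limma adjusted p = 0.50) did not pass. Uncentred it was 0.56 (limma adjusted p = 0.018). In SUPB15 1 library, asparaginase replicate 1, listed a peak 4762 bp downstream with a fold enrichment of 1.96, the lowest of all 60 peaks.

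BCL2L11 was the gene whose region fell in Nalm6. A broad peak, in the region chr2:111877593-111879349, covered the start in all 4 Nalm6 libraries, with its summit 223 to 274 bp upstream. The level was 22.6 and 20.6 in Nalm6 with asparaginase and 22.6 and 30.5 in untreated Nalm6, so that before centring the groups overlapped. Pileups, which are not scaled for depth, were 49 and 47 fragments with asparaginase against 66 and 84 without. The genome backgrounds were 2.21 and 2.33 against 2.97 and 2.79. Fold enrichment was 5.66 and 4.598 with asparaginase and 5.43 and 6.43 without. Asparaginase replicate 2 also listed a weaker peak of the same region 554 bp upstream (fold enrichment 2.58). Relative to the median region the change was -0.65 on the log2 scale, 0.64-fold (SE 0.20, interval -1.03 to -0.26, limma adjusted p = 0.0053). The call was lost without centring (-0.28, adjusted p = 0.27), with fold enrichment (-0.35, adjusted p = 0.19), without asparaginase replicate 2 (-0.53, adjusted p = 0.16) and without untreated replicate 2 (-0.53, adjusted p = 0.080). In SUPB15 the untreated libraries listed no BCL2L11 peak, and the asparaginase libraries listed 1 each at unlike places, 184 bp downstream in replicate 1 (fold enrichment 2.37) and 3066 bp upstream in replicate 2 (2.64).

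TNFRSF10B showed the clearest increase. A peak covered its start site in all 8 libraries, with the summit within 63 bp of the start in 7 of them and 201 bp downstream in untreated Nalm6 replicate 1. The Nalm6 region spanned chr8:22925494-22927091 and the SUPB15 region chr8:22926145-22926949. The level was 44.8 and 43.3 times the genome background in Nalm6 with asparaginase and 12.8 and 17.2 in untreated Nalm6, from 98 and 100 fragments at the summit against 37 and 47. In SUPB15 it was 40.6 and 27.0 with asparaginase and 12.5 and 11.8 without. The treated libraries lay above the untreated ones in both lines. Non-overlap in this direction was found at 4 of the 6 member regions in Nalm6 and 2 of 2 in SUPB15, beside 60.4% and 68.1% of all regions listed in the 4 libraries, so it is common. The opposite order was found at none of the members and at 6.14% and 1.70% of all regions.

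The change at TNFRSF10B in Nalm6 was 1.21 on the log2 scale, 2.31-fold (SE 0.19, interval 0.83 to 1.58, limma adjusted p = 1.43e-08), larger than at 91.6% of all regions fitted. Under 10 other settings of the fit it was 0.89 to 1.57 and stayed past the threshold in each. Joining peaks by summits within 200 bp in place of overlap took the gene out of the comparison, since the summit of untreated replicate 1 lay apart. In SUPB15 it was 0.83, 1.77-fold (SE 0.36, interval 0.13 to 1.52, limma adjusted p = 0.065), and did not pass. This change was larger than at 79.6% of the regions fitted there. Uncentred it was 1.45, which passed (limma adjusted p = 0.00018). Under 10 alternatives it was 0.35 to 1.45, with limma adjusted p from 0.00018 to 0.61. The SUPB15 response minus the Nalm6 response was -0.25 (interval -1.02 to 0.52, limma adjusted p = 0.89), and of the 2 genes tested for such a difference none was called and none had an unadjusted p under 0.05, beside 5.43% of 3812 regions called, 0.498% with a higher and 4.93% with a lower response in SUPB15. Fold enrichment, as deposited, was 10.6 and 9.51 in Nalm6 with asparaginase and 4.27 and 5.63 in untreated Nalm6, and 10.4 and 8.95 in SUPB15 with asparaginase and 5.23 and 5.03 in untreated SUPB15. The −log10 q was 64.4 and 61.1 against 11.1 and 19.0 in Nalm6, and 107 and 60.8 against 17.9 and 15.2 in SUPB15. A second, weak Nalm6 region 1335 to 1604 bp downstream had a level of 12.01 in asparaginase replicate 2 and 9.09 and 7.89 in the untreated libraries, and was not listed in asparaginase replicate 1.

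**Figure D2:**
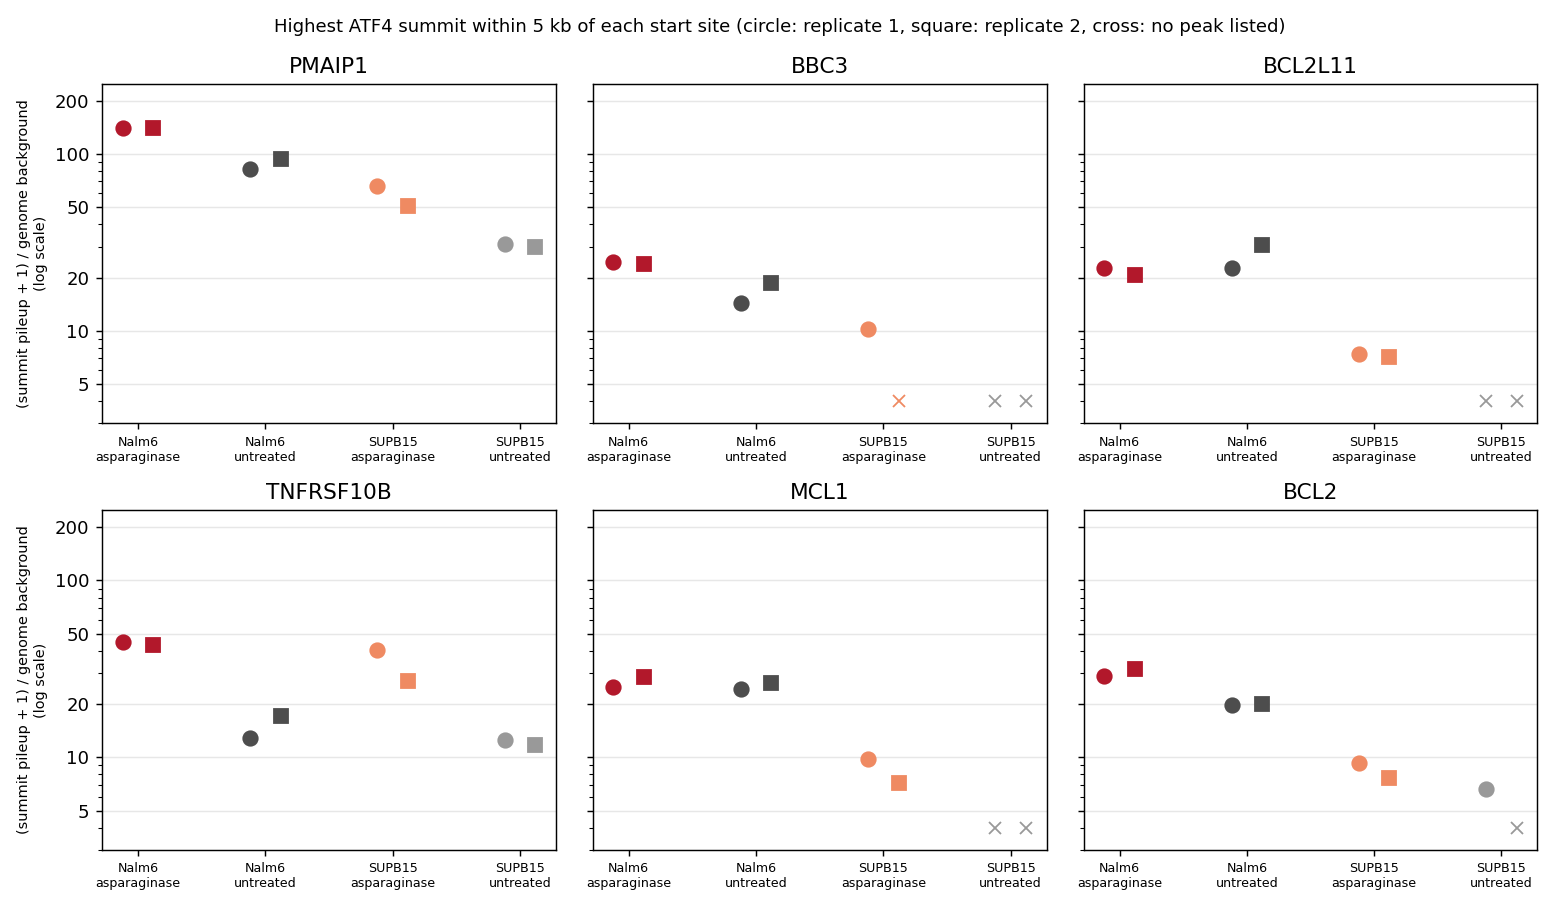
Level of the highest summit within 5 kb of each start site, as (summit pileup + 1) divided by the library's genome background on a log scale, by group; circles are replicate 1, squares replicate 2, and crosses, drawn at an arbitrary height, mean that no peak was listed. TNFRSF10B stands at 44.8 and 43.3 in Nalm6 with asparaginase against 12.8 and 17.2 without; the BCL2L11 points of SUPB15 belong to peaks at different places.

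The antiapoptotic genes MCL1 and BCL2 were listed in fewer SUPB15 than Nalm6 libraries, and so were BBC3 and BCL2L11. The untreated SUPB15 lists were also the shortest, at 9575 and 9586 peaks. MCL1, whose short-lived protein binds NOXA and BIM, had a peak over its start in all 4 Nalm6 libraries, in the region chr1:150551111-150552624 with summits 188 to 370 bp downstream. The level was 24.9 and 28.3 with asparaginase and 24.2 and 26.2 without, and the groups overlapped. Fold enrichment was 7.02 and 7.42 with asparaginase and 7.96 and 7.56 without. The log2 change was -0.29 (SE 0.19, interval -0.67 to 0.09, limma adjusted p = 0.26), and uncentred 0.08, so its sign depended on the centring. In SUPB15 the untreated libraries listed no MCL1 peak. With asparaginase each library listed 2 peaks, at levels of 9.78 and 7.40 in replicate 1 and 6.87 and 7.13 in replicate 2, with fold enrichments of 3.13 to 4.12. One merged region, chr1:150551250-150552129, was gained. With −log10 q of at least 10, or with lists of equal length, no gained region remained near the genes in SUPB15.

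BCL2, the founding member of the family, had its main peak upstream of the start. In Nalm6 the region chr18:60986942-60988105 held summits 802 to 1064 bp upstream, and no interval reached the start site. The level was 29.0 and 31.7 with asparaginase and 19.9 and 20.1 without, with no overlap. Fold enrichment was 4.62 and 4.71 with asparaginase and 3.89 and 3.83 without. The log2 change was 0.24 (SE 0.19, interval -0.14 to 0.62, limma adjusted p = 0.37), and 0.60 uncentred, which passed (adjusted p = 0.0066). A second site 2466 bp upstream, chr18:60988842-60989233, was the gained Nalm6 region, with levels of 18.1 and 20.2 and fold enrichments of 2.9985 and 3.10 with asparaginase. Its −log10 q was 6.91 and 8.76, and with −log10 q of at least 10 the gained Nalm6 region was at PMAIP1 instead. In SUPB15 the main site was listed in 3 libraries, at 9.31 and 7.64 with asparaginase and at 6.62 in untreated replicate 1. Asparaginase replicate 1 alone listed a further SUPB15 peak 1022 bp downstream, at chr18:60985478-60985693, with a fold enrichment of 2.77.

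**Figure D3:**
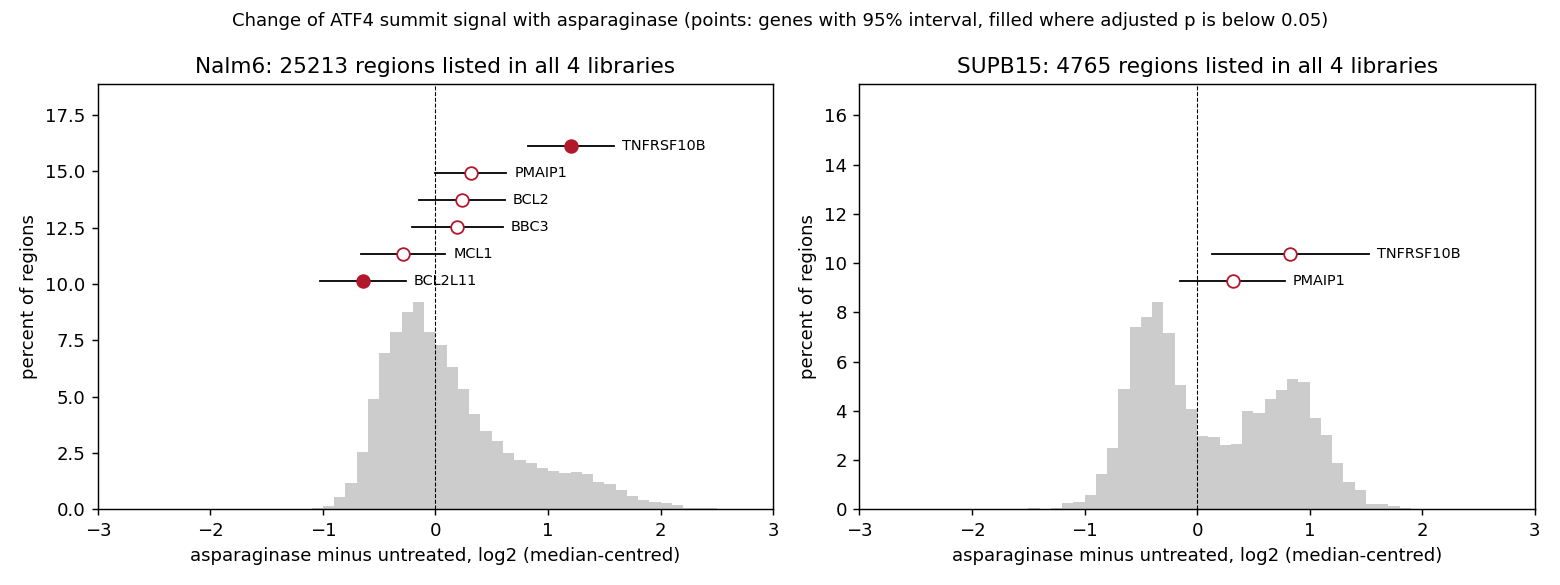
Change with asparaginase at regions listed in all 4 libraries of a line, median-centred; grey bars give the percent of all regions per step of the log2 change, and points the genes with their 95% interval, filled where the limma adjusted p is below 0.05. TNFRSF10B at 1.21 and BCL2L11 at -0.65 are the filled points in Nalm6, and neither SUPB15 point is filled; the SUPB15 bars have 2 humps with the median between them.

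Set side by side, the genes changed their order in Nalm6 between treatments. With asparaginase the mean level was 140 ± 1.17 at PMAIP1 (SD, n = 2, as for the other means of Nalm6), 44.1 ± 1.06 at TNFRSF10B, 30.4 ± 1.95 at BCL2, 26.6 ± 2.41 at MCL1, 24.2 ± 0.305 at BBC3 and 21.6 ± 1.45 at BCL2L11. Without treatment it was 87.9 ± 8.59 at PMAIP1, 26.5 ± 5.604 at BCL2L11, 25.2 ± 1.37 at MCL1, 19.97 ± 0.155 at BCL2, 16.6 ± 2.95 at BBC3 and 15.0 ± 3.13 at TNFRSF10B. TNFRSF10B was thus lowest in untreated cells and next to PMAIP1 in treated ones. In untreated cells the libraries of BCL2L11 and MCL1 overlapped, and so did those of BBC3 and TNFRSF10B. In SUPB15 the means were 58.4 ± 10.9 at PMAIP1 and 33.8 ± 9.60 at TNFRSF10B with asparaginase, and 30.3 ± 0.792 and 12.1 ± 0.493 without (SD, n = 2 each).

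Ranks within a list, by −log10 q with 1 as the strongest, placed PMAIP1 near the top everywhere. Its rank was 526 of 43376 and 589 of 48984 in asparaginase-treated Nalm6, 216 of 34825 and 225 of 36801 in untreated Nalm6, 291 of 88302 and 286 of 41213 in asparaginase-treated SUPB15, and 295 of 9575 and 152 of 9586 in untreated SUPB15. TNFRSF10B ranked 2216 and 2864 in Nalm6 with asparaginase and 13974 and 8890 in untreated Nalm6, and 929 and 1182 in SUPB15 with asparaginase and 1541 and 1324 in untreated SUPB15. MCL1 stood at 15.8% and 12.6% of its list in Nalm6 with asparaginase and at 6.53% and 8.0025% in untreated Nalm6. Lists of unlike length make such ranks a description of each list and no measure of change. Ranked by fold enrichment, PMAIP1 in Nalm6 stood lower, at 11.8% and 13.1% of the list with asparaginase and 8.83% and 7.78% without.

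**Figure D4:**
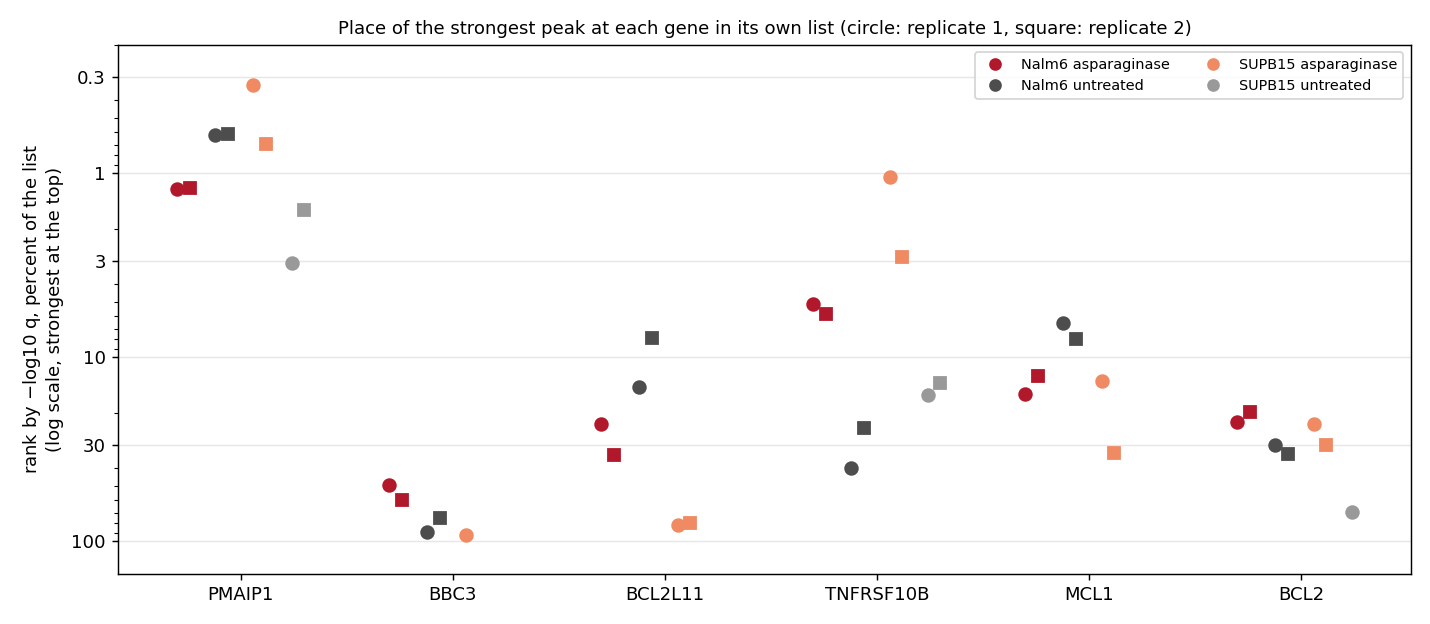
Rank of the strongest peak at each gene as percent of its own list by −log10 q, on a log scale with the strongest at the top; circles are replicate 1 and squares replicate 2, and libraries without a listed peak have no point. PMAIP1 stays within the first 3.08% of every list, and BBC3 stands at 49.8% or more wherever a peak is listed within 5 kb of its start. The stronger BBC3 peak beyond 5 kb is not drawn.

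Among the counted peaks 4, all at the second PMAIP1 site, had summits beyond 5 kb. The farthest counted interval began 4883 bp from its start site, at PMAIP1 in SUPB15 with asparaginase (fold enrichment 2.49), and the nearest interval not counted lay 5076 bp from the TNFRSF10B start in untreated Nalm6 replicate 1 (5.78). A peak 5076 to 5439 bp from the TNFRSF10B start, and another 5917 to 6260 bp from the BBC3 start, were listed in all 8 libraries and were left out by the rule.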

How the data were processed

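The authors deposited 1 narrowPeak list per library, so peaks were called per sample. The submitters' processing notes name BWA, MACS2, DiffBind and the build hg19; their versions and settings are not stated. Per the file headers the lists are in narrowPeak format: fold enrichment (a ratio to local background), −log10 p and −log10 q are the authors' values, used to describe and rank peaks within a list.

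From each deposited fold and −log10 p the whole-number summit pileup and local background were solved, as MACS2 computes them (tolerance 0.001 in −log10 p, 100% of peaks). The lowest background of a list served as its genome background. Higher backgrounds were multiples of 0.02, which a background from the library itself gives; no control library is recorded in the labels. Open chromatin or extra gene copies can then raise a peak.

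At regions listed in all 4 libraries of a line (all 8 for the difference between lines), log2((pileup + 1) / genome background) was compared with limma 3.58.1 in R 4.3.3 (trend, median-centred change, Benjamini-Hochberg over all regions). Regions absent from a list are not in that comparison. With so few libraries, the SEs, intervals and p-values rest mostly on the spread pooled over all regions. They rest little on the spread of a region's own libraries. Exact tests of 2 against 2 libraries cannot go below p = 0.333 and were not used. Steps were tested on simulated data in which few regions changed, as many up as down. Those tests cannot show how median-centring behaves where many regions change in the same direction.

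Libraries were grouped by title. The members, lists and steps were chosen with earlier results of these data known. All 6 genes are named; other apoptosis genes and genes of like pattern were not placed, as no hg19 annotation was used here, so exon and intron positions are not given either. Strands are textbook knowledge, and for the 4 genes in the RefSeq promoter table they are the same there. Of the 3 Nalm6 experiments per condition that the series text gives, 2 were analysed here. Alternatives were no centring, fold enrichment, a replicate block, no trend, −log10 q of at least 5 or 10, left-out libraries, other windows, summits within 200 bp and equal list lengths.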

Additional observations from a re-analysis of the deposited data

How the results depend on the processing

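The TNFRSF10B rise in Nalm6 kept its direction and its call under 10 alternatives of the fit; with summits within 200 bp its region was not among the 5 listed in all 4 libraries and has no value. In the same 10, the BCL2L11 fall kept its direction under all and its call under 6. MCL1 in Nalm6 turned to 0.077 without centring. PMAIP1, not called, turned to -0.089 in Nalm6 and -0.072 in SUPB15 with fold enrichment, and to -0.10 and -0.16 in SUPB15 with −log10 q of at least 5 and 10; it passed in Nalm6 with −log10 q of at least 10 (0.41, limma adjusted p = 0.026), without untreated replicate 1 (0.26, adjusted p = 0.0076) and without untreated replicate 2 (0.31, adjusted p = 0.00093). Without asparaginase replicate 2 the TNFRSF10B change in SUPB15 was 0.99, from a fit with a single treated library. Among fits that kept all 4 libraries, that gene passed in SUPB15 without trend (limma adjusted p = 0.017), without centring (1.45, adjusted p = 0.00018) and with the replicate block given below. The cause was not tested.

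Counts of called regions were 7896 in Nalm6, 1260 in SUPB15 and 207 for the difference between lines. With fold enrichment they were 4852 in Nalm6 and 116 for the difference. With −log10 q of at least 10 they were 4723 of 12079 regions fitted, 569 of 1642 and 51 of 1269. With at least 5 the difference gave 111 of 2232. Without these cuts 25213, 4765 and 3812 regions were fitted. In SUPB15 no centring gave 2338, and −log10 q of at least 5 left 130 called higher and 840 lower. With a library left out, Nalm6 gave 4787 to 7027, SUPB15 0 to 1835 and the difference 79 to 374. By limma 0 were called in SUPB15 without untreated replicate 2 (633 at an unadjusted p under 0.05) and 53 without untreated replicate 1.

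Same-numbered libraries deviated together only weakly (r = 0.033 in Nalm6 and 0.086 in SUPB15, across regions), so the numbers were not taken as pairs. With the replicate block limma called 10000 regions in Nalm6, 2341 in SUPB15 and 411 for the difference; in SUPB15 TNFRSF10B (adjusted p = 0.00030) and PMAIP1 (adjusted p = 0.018) then passed.

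Near the genes, leaving out a library gave 1 to 2 gained and 0 to 2 untreated-only regions in Nalm6 and 2 to 6 gained regions in SUPB15. In SUPB15 0 gained regions were left with −log10 q of at least 10 or equal list lengths, and genes listed in both asparaginase libraries were 2 with −log10 q of at least 10. Summits within 200 bp gave 1 untreated-only region in each line. Counts of genes were within 1.5 times the reported ones under the other windows.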

Other observations

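The peaks that the 5 kb rule left out at TNFRSF10B and BBC3 are given here as values with no test, since they were chosen after they had been seen. Upstream of TNFRSF10B, with summits at -5540 to -5622 bp from the start, the level was 43.5 and 40.3 times the genome background in Nalm6 with asparaginase and 9.76 and 12.2 in untreated Nalm6. In SUPB15 it was 43.4 and 30.8 with asparaginase and 11.3 and 10.0 without. Fold enrichments were 14.4 and 14.1 against 5.78 and 6.85 in Nalm6, and 11.5 and 10.9 against 5.52 and 5.08 in SUPB15, asparaginase against untreated in each line. Both treated libraries of each line were above both untreated ones there, as at the start site and at most regions listed in all libraries of a line.

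At BBC3, with summits 6373 to 6439 bp downstream of the start, the level was 67.9 and 64.4 in Nalm6 with asparaginase and 65.0 and 78.9 in untreated Nalm6, and the groups overlapped. In SUPB15 it was 20.04 and 12.7 with asparaginase and 14.2 and 10.3 without, and the groups overlapped too. This peak ranked 1498 and 2017 in the Nalm6 asparaginase lists and 223 and 229 in the untreated ones, far above the counted BBC3 peaks. In SUPB15 it stood at 5.95% and 17.0% of its lists with asparaginase and at 16.6% and 27.9% without.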
